A study of Mus musculus with 16 samples.

Results

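The cluster of the 5 tRNA genes TrnW, TrnA, TrnN, TrnC and TrnY, with the light-strand replication origin between TrnN and TrnC, was described across 16 libraries of mouse mitochondrial DNA. It was taken by position on build GRCm38, from the first base of TrnW to the base before the gene COX1, which is 378 of the 16299 positions of the mitochondrial genome (MT). Each position has 3 possible non-reference bases, so the cluster held 1134 of the 48897 alleles. Its members were TrnW (gene ID 17746, ending at 5016), TrnA (17726, MT:5018-5086), TrnN (17738, MT:5089-5159), the light-strand origin (MT:5160-5191), TrnC (17727, MT:5192-5257) and TrnY (17747, MT:5260-5326), and 6 spacer positions. The cluster lies between the genes ND2, whose annotated end at 4951 overlaps the start of TrnW by 2 bases, and COX1, which starts at 5328. Only TrnW is read from the strand given in the reference. The other 4 tRNA genes are read from the opposite strand.

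The cells came from femurs of mice of the strain PolG D257A/D257A at an age of 3 months. The D257A change removes the proofreading activity of the polymerase that copies mitochondrial DNA, and all 16 libraries carry it, so no library with an intact polymerase stands beside them. Skeletal cells were sorted into 8 subsets, each with a library numbered 1 and one numbered 2. The names of the subsets are those of the surface markers in the labels. CD45, found on blood-lineage cells, stands for 1 of them, and the 7 others are CD29, CD24, CD24_CD29, CD105, 6C3, Thy and Thy_6C3. Sorting gates and the number of mice behind a library are not in the labels, and a p-value here speaks only of the scatter among libraries, part of which may be technical. Mitochondrial tables hold no marker genes, so the subsets could not be checked against their names.

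Mitochondrial tRNAs carry amino acids to the ribosomes that make the proteins encoded in mitochondrial DNA, and each tRNA folds through an acceptor stem, a D arm, an anticodon arm and a T arm. The T loop docks against the D loop and holds the molecule in its L shape. The light-strand origin works as a stem-loop: when the parental heavy strand has been displaced and is single-stranded there, it folds on itself, and the mitochondrial RNA polymerase lays down in its loop the primer from which the new light strand is copied.

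The genes are printed 5′ to 3′ as the tRNA reads, to show where the alleles below fall, with the anticodon in capitals. The bases are the reference bases of the deposited coverage table.
TrnW: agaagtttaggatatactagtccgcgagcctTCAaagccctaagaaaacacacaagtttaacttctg
TrnA: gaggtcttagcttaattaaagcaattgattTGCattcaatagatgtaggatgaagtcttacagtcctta
TrnN: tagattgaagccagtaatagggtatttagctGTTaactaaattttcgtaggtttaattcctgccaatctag
TrnC: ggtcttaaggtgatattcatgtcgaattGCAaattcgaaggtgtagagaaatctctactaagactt
TrnY: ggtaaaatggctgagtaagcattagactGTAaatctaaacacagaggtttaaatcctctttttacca

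The origin is printed on the reference strand as MT:5160-5194, with the paired strands of the stem in capitals. The displaced heavy strand carries the complement.
Light-strand origin: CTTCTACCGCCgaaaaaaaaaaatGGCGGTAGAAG

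The stem has 11 pairs without a mismatch, and the last 3 of its bases lie inside TrnC. Its loop has 13 bases, of which 11 are A. In TrnA, TrnN, TrnC and TrnY the 5 base pairs of the T stem were all found next to the acceptor stem, with loops of 6 or 7 bases, while TrnW gave 4 of 5 pairs around a loop of 4 bases.

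Allele names give the reference base, the position and the non-reference base on the reference strand, and a fraction is the count of that base over the coverage. Mean coverage of the cluster ran from 5658 to 65676 counts per position over the 16 libraries, and the lowest coverage at any of its positions was 4047. With 3 counts as the limit that a count of 0 allows, a library could miss fractions of up to 0.00457% to 0.0530%. The word counted is used below of an allele that reached 1% with at least 5 counts in the library named. One library, Thy replicate 2, stood apart over the whole genome, most of all through its A>C and T>G changes. It held 2530 counted alleles, of which 2178 were A>C or T>G, against 98 to 416 counted alleles in each of the other 15. Its other transversions were raised too. With A>C and T>G left out, its summed non-reference fraction per position outside the cluster was 0.656%, against 0.332% to 0.425% in the other 15. Results that rest on it are given with and without it.

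In the cluster, 94 of 1134 alleles (8.29%) were counted in at least 1 of the 16 libraries, where the share over all alleles of the genome was 7.13%. Thy replicate 2 alone held 62 of the 94, and 42 of these 62 were A>C or T>G changes. Without that library 32 alleles (2.82%) were counted, against 2.31% over the genome, and 18 of the 32 were transitions. Of the 32, 22 were counted in exactly 1 of the 15 libraries and 10 in more. Each of the 15 libraries held between 2 and 12 counted alleles of the cluster, and Thy replicate 2 held 73. The fewest were in CD45 replicate 2, and the most after Thy replicate 2 were in Thy replicate 1 with 12, and in CD24_CD29 with 10 and 11. Over the whole genome the CD24_CD29 libraries held 280 and 416 counted alleles, against 147 in Thy replicate 1. They also had the lowest mean coverage of the genome, 13534 and 6569 counts per position.

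**Figure D1:**
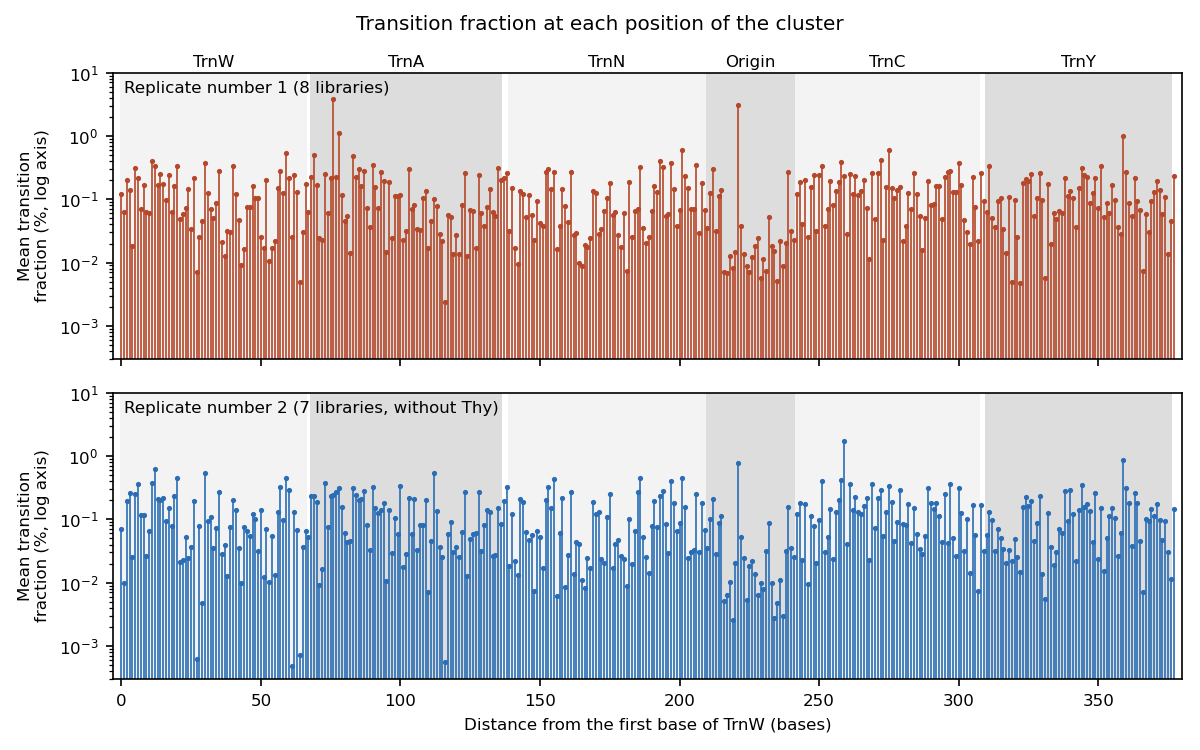
Mean transition fraction at each of the 378 positions (log axis, percent) against the distance in bases from the start of TrnW, for the 8 libraries of number 1 (top) and the 7 of number 2 without Thy replicate 2 (bottom); shading and names mark the genes and the origin. In number 1 the tallest points are in TrnA (3.84%) and at the origin (3.11%), and in number 2 the tallest is in TrnC (1.70%).

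The 3 alleles with the highest means in a replicate number were carried by every subset of that number and were lower in every subset of the other. They lay in the T arms of TrnA and TrnC and in the loop of the origin. Of the 94 alleles, 2 (G5026A and G5171A) had all 8 libraries of number 1 above all 8 of number 2, where 1.78% of the 3487 counted alleles of the genome did so. In the other direction there was 1 of 94 (T5209C), against 1.81% over the genome. Without Thy replicate 2 the same 3 alleles were named, of 32 in the cluster, and the shares over the genome were 5.84% and 5.40% of 1130. Alleles counted in all 8 libraries of a number were also few: G5026A and G5171A in number 1 (0.108% of the alleles of the genome met this), and T5209C and C5157A in number 2 (0.121% of the genome). These shares of the cluster, 0.176% in both numbers, rest on 2 alleles each.

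G5026A is base 61 of TrnA, the last base of its T stem. Over the libraries of number 1 its lowest, median and highest fractions were 2.59% (CD29), 3.61% and 5.58% (Thy_6C3), with a mean of 3.84% ± 0.974 (SD, n = 8). Over number 2 they were 0.172%, 0.231% and 0.675%, with a mean of 0.293% ± 0.168 (SD, n = 8). The highest value of number 2 was that of Thy replicate 2. The groups did not overlap, and the subsets within number 1 spread over a factor of 2.16. This is the base shown in capitals here, on the reference strand, with 10 bases to each side (MT:5016-5036).
G5026A: gataaggactGtaagacttca

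A5028G, base 59 of TrnA and also in the T stem, lay 2 bases away. It had a mean of 1.11% ± 0.256 (SD, n = 8) in number 1 and of 0.303% ± 0.244 (SD, n = 8) in number 2. It reached 1% in 5 libraries, all of number 1. Its groups overlapped: CD24 replicate 2 had 0.715% and CD29 replicate 1 had 0.685%. T5085C, base 2 of the acceptor stem of the same gene, was by contrast high in a single library: CD24_CD29 replicate 1 had 1.41%, and the highest of the other 15 libraries had 0.382%.

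T5209C is base 49 of TrnC, in its T loop. Its lowest, median and highest fractions were 1.24% (Thy), 1.57% and 2.26% (Thy_6C3) in number 2, with a mean of 1.64% ± 0.293 (SD, n = 8). In number 1 they were 0.0651%, 0.194% and 0.521%, with a mean of 0.235% ± 0.178 (SD, n = 8). The 2 numbers did not overlap, and within number 1 the 6C3 and CD29 libraries, at 0.490% and 0.521%, stood above the others. The base and its surroundings are shown on the reference strand (MT:5199-5219).
T5209C: agtagagattTctctacacct

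T5309C in TrnY was of another kind, present at nearly the same level in both numbers. It is base 18, in the D region between the acceptor and anticodon stems, and had a mean of 1.0% ± 0.110 (SD, n = 8) in number 1 and of 0.858% ± 0.166 (SD, n = 8) in number 2. Its 16 values ran from 0.554% (CD24_CD29 replicate 2) to 1.22% (CD24 replicate 1). C5157A in TrnN, base 3 of the acceptor stem, was at 1.17% ± 0.148 (SD, n = 8) in number 1 and 1.14% ± 0.174 (SD, n = 8) in number 2, and C5150A, base 10 of the same gene, at 1.0% ± 0.0804 and 1.07% ± 0.224 (SD, n = 8 each). The numbers overlapped for these 3 alleles, and the C>A alleles were highest in Thy replicate 2, at 1.54% and 1.56%. Without that library the means in number 2 were 1.08% and 0.997%.

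**Figure D2:**
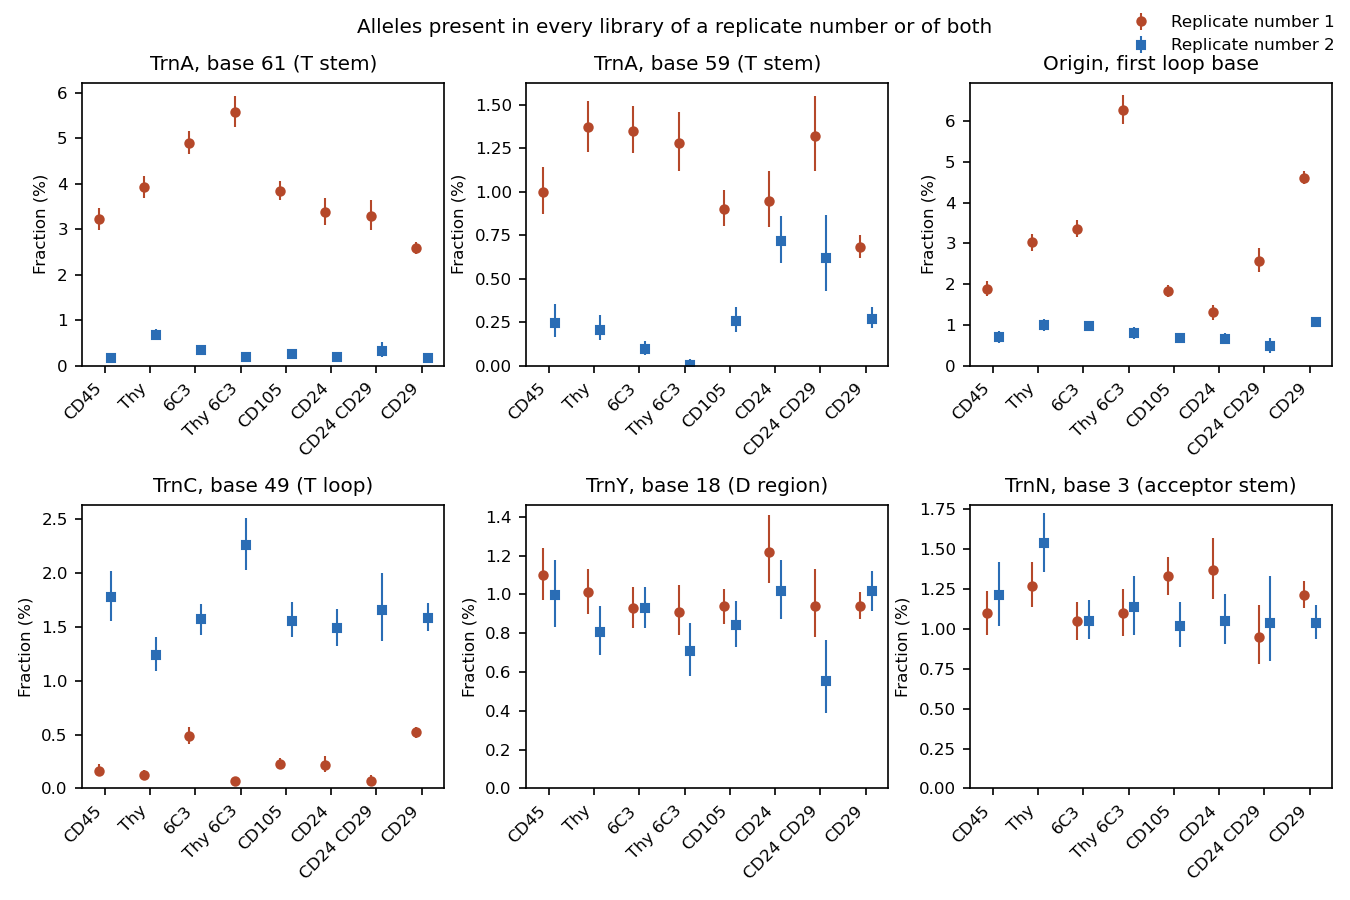
Fractions (percent) of G5026A, A5028G, G5171A, T5209C, T5309C and C5157A in each of the 8 subsets, for number 1 (circles) and number 2 (squares), named by gene and base; bars are exact 95% intervals of counting error. At TrnA base 61 and the first loop base of the origin every circle lies above every square, at TrnC base 49 every square above every circle, and at TrnY base 18 and TrnN base 3 circles and squares overlap.

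TrnW held none of these recurrent alleles. Its allele with the highest mean was G4951T, base 2 of its acceptor stem and also inside the end of ND2, at 0.696% ± 0.114 (SD, n = 8) in number 1 and 0.701% ± 0.220 (SD, n = 8) in number 2. T4980C, base 31, the base before the anticodon, was at 1.20% in CD29 replicate 2 and at no more than 0.743% elsewhere. Without Thy replicate 2, 4 alleles of TrnW were counted, 5 of TrnA, 6 of TrnN, 3 of the origin, 8 of TrnC, 6 of TrnY and 0 of the spacers. With Thy replicate 2 the counts were 20, 7, 18, 7, 33, 8 and 1 in the same order, so most of what that library added lay in TrnW, TrnN and TrnC. C5259G, the spacer allele with the highest mean, was at 0.346% ± 0.101 (SD, n = 8) and 0.458% ± 0.0657 (SD, n = 8), and its highest value in any library was 0.553%.

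By part of the tRNA, the T stems and T loops held 11 of the 29 alleles counted in the 5 genes over the 15 libraries, on 81 of 340 positions. Of those 11, 5 were transitions. Acceptor stems held 6 alleles on 70 positions, D regions 7 on 78, anticodon stems 3 on 50, anticodon loops 2 on 35, and the variable regions 0 on 21. The mean transition fraction per position was 0.190% in T loops and 0.158% in T stems, against 0.115% in acceptor stems, 0.106% in anticodon stems, 0.133% in anticodon loops and 0.146% in D regions. Much of the T stem value was G5026A: the median over the 50 T stem positions was 0.0734%, below the 0.0831% of acceptor stems, while the median over T loops was 0.178%. Positions are not replicates, and these parts were not tested against each other.

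Some alleles were high in a single library. A5062G, base 25 of TrnA in the anticodon stem, was at 3.24% in CD24_CD29 replicate 2, and its highest value in the other 15 libraries was 0.353%. A5019G, base 68 of TrnA, was at 1.26% in CD24_CD29 replicate 1 and at 0.664% or less elsewhere. A5244C, base 14 of TrnC, was at 2.37% in Thy replicate 2 and at 0.509% or less elsewhere. The last is of the A>C kind that marked Thy replicate 2 over the whole genome. T5313C in TrnY was at 1.0% in 6C3 replicate 2 and had a count of 0 in CD24_CD29 replicate 2.

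The loop of the origin held the second highest allele of the cluster. G5171A changes the first loop base, next to the stem, and the A that replaces it is complementary to the T at the other end of the loop. In number 1 it was at 1.89% in CD45, 3.03% in Thy, 3.35% in 6C3, 6.27% in Thy_6C3, 1.84% in CD105, 1.31% in CD24, 2.58% in CD24_CD29 and 4.61% in CD29. The spread among these subsets, a factor of 4.81, was wider than that of G5026A in the same libraries. In number 2 its lowest, median and highest fractions were 0.480%, 0.747% and 1.07%, with CD29 the highest, and none reached the lowest of number 1. The means were 3.11% ± 1.65 and 0.796% ± 0.203 (SD, n = 8 each).

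The paired strands of the origin were low in transitions at their G and C positions. Over the 15 libraries the 13 G or C positions of the stem that lie inside the origin had a median transition fraction of 0.0114%, from 0.00490% to 0.0351%, and 12 of the 13 were under 0.03%. The median was 0.0458% over the G and C positions of the 5 tRNA genes and 0.0665% over those of the rest of the genome, where 23.4% of positions were under 0.03%. Each of the 13 lay below the median of the positions elsewhere with the same base and the same neighbour on each side; the median of those context medians was 0.0669%. Some positions were nonetheless ordinary for their context. C5160T, in the outermost pair, was at 0.0351% against a context median of 0.0353%, with 49.6% of the same-context positions at or below it. The share at or below was 42.1% for C5163T and 36.8% for G5191A, which pair with each other. The share was 24.7% for G5188A, whose partner C5166T had 0.289%. For the other 9 positions, C5166T among them, the share was 14.3% or less. In every library the pooled fraction of the stem G and C positions, summed counts over summed coverage, was below that of the tRNA genes and of the rest of the genome. It ran from 0.00876% to 0.0301% in the stem, from 0.0553% to 0.126% in the tRNA genes and from 0.102% to 0.126% in the rest. In these pooled fractions the rest exceeded the stem by a factor of 3.82 to 12.1, with a median of 8.03 over the 16 libraries. Medians over positions lay closer together, with a median over the 16 libraries of 0.0106% in the stem and 0.0415% in the rest. The stem positions were set apart after their values had been seen, so no test is given.

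The A and T positions of the stem were not low. The 6 of them had a median transition fraction of 0.120%, close to the 0.131% of A and T positions in the rest of the genome. The A run of the loop had a median of 0.0161%, but A positions inside runs of 8 or more A elsewhere, 16 in number, had 0.0166%. A level near 0.01% lies under what a count of 0 allows in the shallower libraries, so the order of single stem positions cannot be read.

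Transversions at the same G and C positions were not low. Over the 15 libraries the mean over the rest of the genome was 0.294% for C>A and 0.295% for G>T, and 9 of the 13 stem positions were near it, from 0.299% (C5167A) to 0.421% (C5170A). The other 4 were higher, C5160A at 0.893%, C5163A at 0.978%, G5191T at 0.796% and G5184T at 0.774%. C5163A was at 0.979% ± 0.0747 (SD, n = 8) in number 1 and 1.04% ± 0.186 (SD, n = 8) in number 2, and reached 1% in 5 libraries. The positions of C5160A and C5163A had transition fractions of 0.0351% and 0.0297%. The table gives no read strand, so C>A and G>T changes at a pair of the stem cannot be assigned to a strand.

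**Figure D3:**
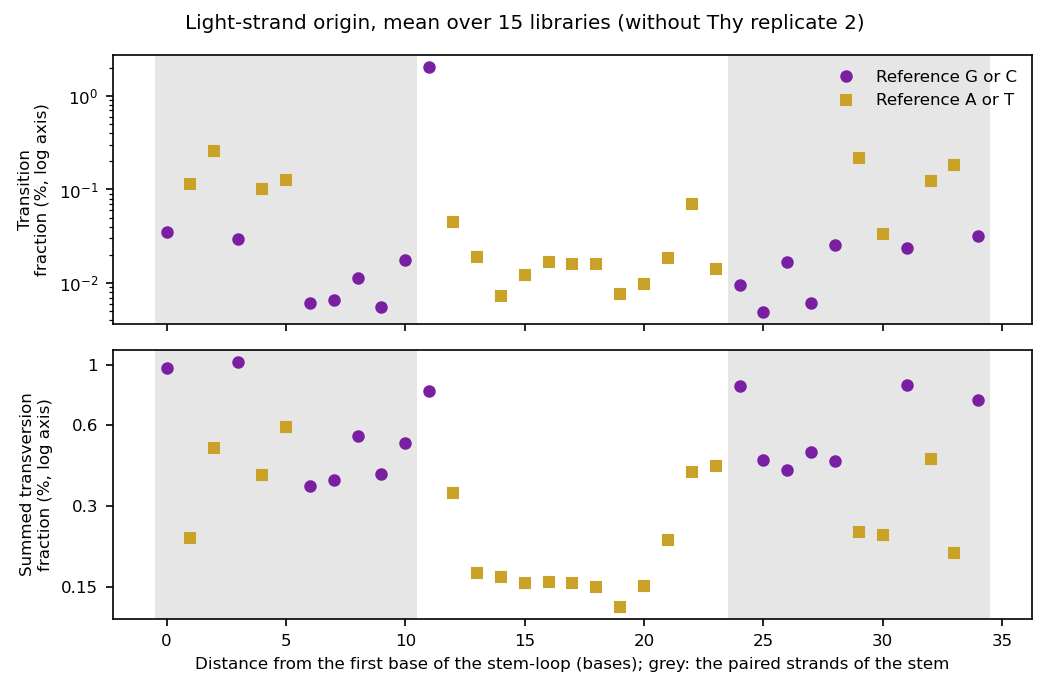
Transition fraction (top) and summed transversion fraction (bottom), both in percent on log axes, at each base of the origin stem-loop, mean over the 15 libraries without Thy replicate 2; grey marks the paired strands, circles G or C and squares A or T. Circles inside the grey lie at 0.0351% or below for transitions while the first loop base stands at 2.02%; for summed transversions the circles in the grey run from 0.354% to 1.03%, and the squares there reach 0.591%.

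Load, the summed non-reference fraction of a position averaged over positions, was 0.513% in the cluster and 0.485% in the rest of the genome over all changes, a difference of 0.0283 percentage points. It was higher in 8 of 8 subset means and in 15 of 16 libraries (exact sign-flip permutation p = 0.00781 over the 8 subset means, two-sided; 0.0137 after adjustment over 7 comparisons). The smallest p that 8 subset means allow is 0.00781. Libraries of one replicate number may share animals. A sign-flip p, here and below, therefore speaks only of how even a difference was over subsets. Without both Thy libraries the difference was 0.0209 percentage points and the adjusted exact permutation p was 0.0273. C>A and G>T changes were among the higher ones in the cluster, at means over the 15 libraries of 0.371% and 0.382% per site against 0.294% and 0.295% in the rest.

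Transition load went the other way. It was 0.132% in the cluster and 0.145% in the rest of the genome, lower in the cluster in all 8 subset means and higher in 4 of 16 libraries (adjusted exact sign-flip permutation p = 0.0137, two-sided). The same held against the other 17 tRNA genes, which cover 1157 positions and also had 0.145% (adjusted exact permutation p = 0.0137). Without Thy_6C3 replicate 2 neither passed (adjusted exact permutation p = 0.0729 and 0.109), and without Thy replicate 2 the first did (0.0365) and the second did not (0.0547). Within number 1 the difference from the rest was −0.00298 percentage points (adjusted exact permutation p = 0.503) and that from the other tRNA genes −0.000129 (adjusted exact permutation p = 0.984). Within number 2 they were −0.0229 and −0.0259 (adjusted exact permutation p = 0.0137 for both). The difference was thus past the threshold in number 2 and not in number 1, and the contrast between the numbers was not tested. Libraries of one number carried the same high alleles, so a p within a number does not rest on 8 independent units. Without G5026A and G5171A, which were high in number 1, the difference from the rest over all libraries was −0.0236.

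By kind of transition the cluster departed from the rest in both directions. C>T changes had a mean of 0.0617% per site over the 15 libraries against 0.126% in the rest, and A>G changes 0.108% against 0.140%. T>C changes had 0.212% against 0.191% and G>A changes 0.132% against 0.0839%. The G>A mean is over 58 positions and is dominated by G5026A (2.16%) and G5171A (2.02%). It was not computed without them, so it gives no direction for the other G positions. Mean transition load per gene over the 15 libraries was 0.160% in TrnA, 0.155% in TrnC, 0.129% in TrnW, 0.120% in TrnY, 0.109% in TrnN and 0.104% in the origin, against 0.144% outside the cluster. TrnA had 0.188% ± 0.0391 (SD, n = 8) in number 1 and 0.129% ± 0.0212 (SD, n = 7) in number 2 without Thy, and the origin had 0.141% ± 0.0550 and 0.0607% ± 0.0189. TrnW, TrnN, TrnC and TrnY differed by less than 1 SD between the numbers. No test was made between genes.

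The origin had a load of 0.562% against 0.509% over the 5 tRNA genes, a difference of 0.0532 percentage points that was positive in 8 of 8 subset means (adjusted exact sign-flip permutation p = 0.0137, two-sided). Without G5171A the difference was −0.00781 (adjusted exact permutation p = 0.405). The transition load of the origin, 0.104% against 0.134%, did not pass (difference −0.0303, adjusted exact permutation p = 0.0547). It passed without Thy replicate 1 (adjusted exact permutation p = 0.0437), Thy_6C3 replicate 1 (0.0137) or CD29 replicate 1 (0.0328). Without G5171A it was 0.0428% against 0.134% and passed (adjusted exact permutation p = 0.0137). A single allele thus set the sign or the call of both comparisons. Load of counted alleles differed in direction between the numbers. It was higher in the cluster than in the rest and than in the other tRNA genes in all 8 libraries of number 1, with means of 0.0355%, 0.0201% and 0.0151%. In number 2 without Thy it was lower in all 7, with means of 0.0159%, 0.0249% and 0.0341%. The cluster values of number 1 include G5026A and G5171A, at means of 3.84% and 3.11%, and the load of counted alleles was not compared without them. Over all libraries counted alleles added up to a load of 0.0414% in the cluster against 0.0343% in the rest (adjusted exact permutation p = 0.219) and against 0.0324% in the other tRNA genes (adjusted exact permutation p = 0.750). Without Thy replicate 2 these means were 0.0263%, 0.0223% and 0.0240%.

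**Figure D4:**
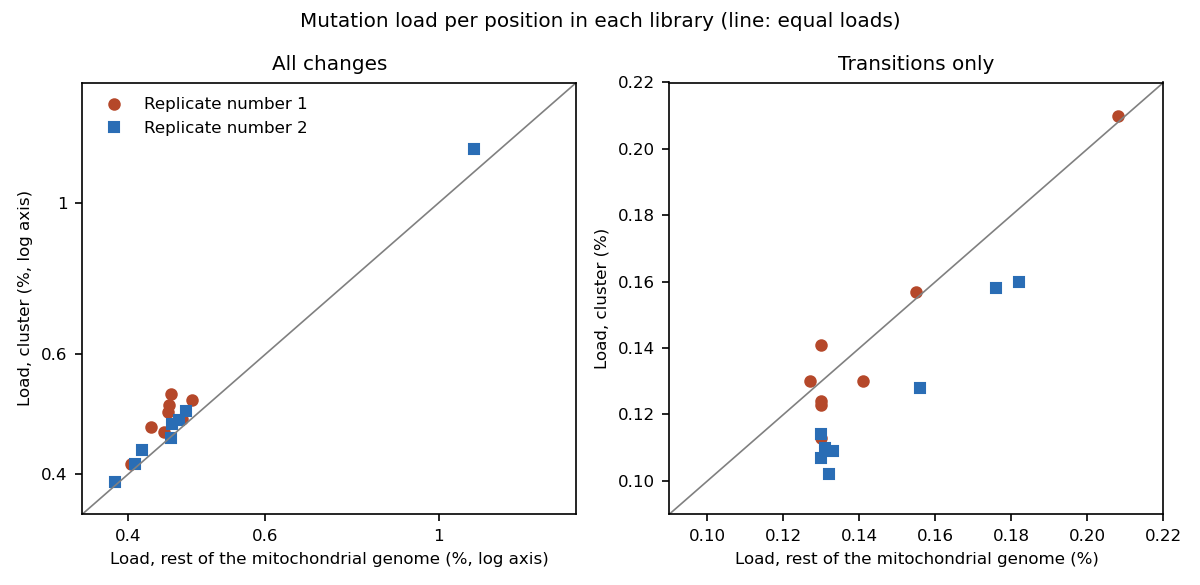
Load per position in the cluster (vertical axis) against the rest of the mitochondrial genome (horizontal axis), in percent, for each of the 16 libraries; left all changes on log axes, right transitions only, with a line of equal loads. On the left 15 of 16 points lie above the line and Thy replicate 2 stands alone at 1.20% against 1.11%; on the right all 8 squares of number 2 lie below the line.

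Between subsets, transition load of the cluster was highest in 6C3, at 0.210% and 0.158% in numbers 1 and 2, and in CD29, at 0.157% and 0.160%. The other 12 libraries lay between 0.102% and 0.141%. The same libraries were high over the rest of the genome, where 6C3 had 0.208% and 0.176% and CD29 had 0.155% and 0.182%. Subsets held 78.6% of the variance (exact one-sided permutation p = 0.0211; with 5 measures adjusted together, 0.0264). Without both Thy libraries the share was 78.5% and the adjusted exact permutation p was 0.0781, and leaving out a single library ended the call in 14 of 16 cases.

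Load over all changes was led by Thy, at 0.524% and 1.20%, and lowest in CD24, at 0.414% and 0.390%. Subsets held 55.6% of the variance (adjusted exact permutation p = 0.0123), and the number of counted alleles gave 56.9% (adjusted exact permutation p = 0.0123). Load of counted alleles gave 63.2% (adjusted exact permutation p = 0.0322). Without both Thy libraries the adjusted exact permutation p was 0.0921 for load and for the number of alleles and 0.482 for the load of counted alleles. Coverage of the cluster relative to the whole mitochondrial genome ran from 0.814 (CD24_CD29 replicate 1) to 0.921 (6C3 replicate 1), with subsets holding 82.2% of the variance (adjusted exact permutation p = 0.0189, and 0.0781 without both Thy libraries).

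Among the alleles that were highest in the Thy libraries were 2 pairs of neighbouring bases in T arms. In TrnC the pair was T5201G and A5202C, bases 57 and 56, on the strand of the T stem next to the acceptor stem. T5201G was at 0.910% in Thy replicate 1 and 1.45% in Thy replicate 2, and at most 0.188% in the other 14 libraries (median 0.0504%). A5202C was at 3.07% and 3.46%, and at most 0.940% in the other 14 (median 0.123%). The highest of those 14 for A5202C were CD29 replicate 2 (0.940%) and CD45 replicate 2 (0.868%), so in number 2 the allele was not seen in Thy alone. The changed bases are shown on the reference strand (MT:5191-5211).
T5201G: gaagtcttagTagagatttct

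In TrnY the pair was A5277C and A5278C, bases 50 and 49, in the T loop. A5277C was at 2.60% in Thy replicate 1 and 0.327% in Thy replicate 2, against at most 0.0638% in the other 14 libraries (median 0.0168%). A5278C was at 4.04% and 0.778%, against at most 0.228% (median 0.0560%). The TrnY pair was thus high in Thy replicate 1 and lower in Thy replicate 2, while the TrnC pair was high in both and somewhat higher in Thy replicate 2. The bases are shown on the reference strand (MT:5267-5287).
A5277C: aagaggatttAaacctctgtg

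These are 3 A>C changes and 1 T>G change, the kind raised over the whole genome in Thy replicate 2, where A>C sites had a mean of 0.765% and T>G sites of 0.665%. In that library the 2 TrnY alleles were therefore near or below the mean of their kind, and the TrnC alleles above it. Thy replicate 1 had no such rise: its means over the genome were 0.111% for A>C and 0.0953% for T>G. Among the 5629 A>C sites of the genome, 2 in Thy replicate 1 exceeded 10 times the highest of the 14 libraries of other subsets, and both were the TrnY pair. This count was chosen after the values were seen. Whether reads carried both bases of a pair together cannot be read from counts per position.

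**Figure D5:**
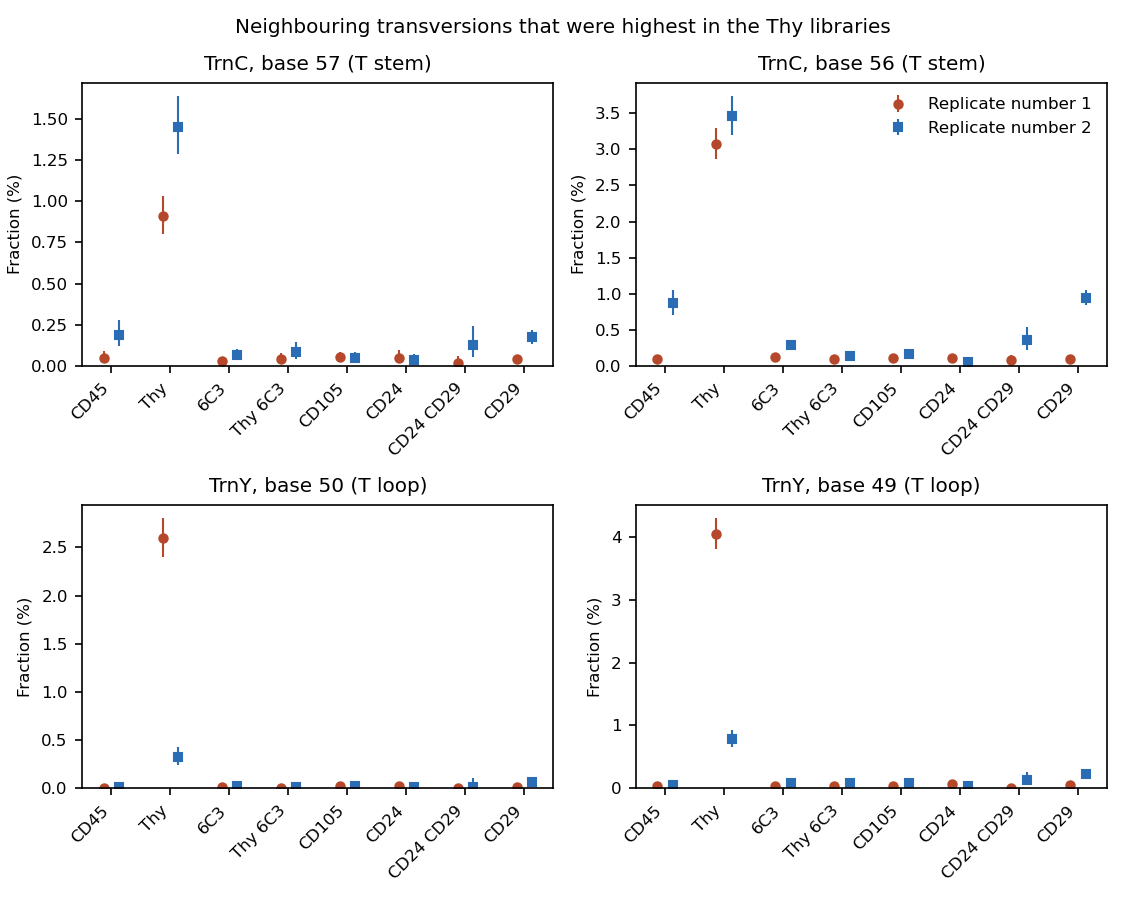
Fractions (percent) of T5201G, A5202C, A5277C and A5278C in each of the 8 subsets, number 1 as circles and number 2 as squares, with exact 95% intervals of counting error. In each panel both Thy points are the highest; in the TrnC panels the square is the higher of them, and in the TrnY panels the circle (2.60% and 4.04%) is far above the square (0.327% and 0.778%).

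With edgeR's quasi-likelihood test over the 3487 counted alleles of the genome, of which 94 lie in the cluster, no allele was called over all subsets or for any of the 8 subsets against the mean of the other 7 (0% of the genome in each). At an unadjusted p under 0.05 the cluster had 4 of 94 alleles over all subsets, 38 for Thy, 3 for Thy_6C3, 4 for CD24_CD29 and 0 for the other 5, where the genome had 53 of 3487, 1702 for Thy, 110 for Thy_6C3 and 220 for CD24_CD29. The 4 alleles of the pairs had the smallest p in the cluster for Thy, all at an adjusted p of 0.0984 (edgeR). Their log2 differences between Thy and the other subsets were 4.28 for T5201G, 4.31 for A5202C, 5.92 for A5277C and 4.92 for A5278C. The 4 alleles reached 1% in Thy libraries only, so they entered the test through the subset in which they were high, and a call for Thy below is no independent support. The same limit holds for all counts of alleles for Thy given here, as 62 of the 94 were counted in Thy replicate 2 alone. With no filter on the fraction (48828 alleles), edgeR called 0 alleles of the cluster for Thy and 0.00410% of the genome, and the 4 had adjusted p from 0.0868 to 0.150. With the replicate number as a block and the filter, T5201G (adjusted p = 0.0191) and A5277C (adjusted p = 0.0265) passed edgeR's test and A5202C and A5278C did not (adjusted p = 0.0536 for both). These were the 2 alleles of the genome called for Thy under the block, 0.0574% of those tested. Without Thy replicate 2 the subset is a single library, assumed to vary like the other subsets, and A5277C and A5278C were counted in that library alone. In that setting without the block A5277C passed (edgeR, adjusted p = 0.0477), 1 of 2 alleles called over the genome (0.0574%), and T5201G, A5202C and A5278C did not (edgeR, adjusted p = 1.0, 1.0 and 0.392). With the block and without Thy replicate 2, A5277C (edgeR, adjusted p = 0.00892) and A5278C (0.0332) passed, 2 of 3 called over the genome (0.0860%). Without CD24_CD29 replicate 2 and without the block, T5201G, A5277C and A5278C passed (edgeR, adjusted p = 0.0493 for each) and were the 3 called over the genome (0.0860%). For Thy_6C3 the block called 0 alleles of the cluster and 0.0287% of the genome, with and without Thy replicate 2. DESeq2 called 4 alleles of the cluster over all subsets (0.516% of the genome), 44 for Thy (58.1% of the genome), 1 for CD24_CD29 (T5085C, 2.04% of the genome) and 0 for Thy_6C3 (0.258% of the genome). T5085C was counted in CD24_CD29 replicate 1 alone, so it too entered the test through the subset in which it was high. It was at no more than 0.382% in every other library, CD24_CD29 replicate 2 included.

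Fractions of the 94 alleles were more alike between subsets of the same replicate number than between subsets of different numbers. The mean correlation on an arcsine square root scale was 0.698 within a number and 0.453 across numbers, a difference of 0.244 (exact permutation p = 0.00781 over all swaps of numbers within subsets, one-sided, the smallest these can give). Among the libraries of the other subsets, the nearest to each of the 16 libraries was one of its own number. The other library of the same subset was left out of this comparison. Without both Thy libraries the means were 0.801 and 0.547 (exact permutation p = 0.0156, again the smallest possible). Over the whole genome the difference was 0.418. The labels do not say what libraries of a number share.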

How the data were processed

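Bulk ATAC-seq libraries (Tn5-tagged DNA, paired reads of 100 bp) of 16 sorted cell samples were analysed. The authors deposited whole-number counts, not normalized: coverage per mitochondrial position, and for each position how often each other base was read. BWA 0.7.17, cutadapt 2.10, bcl2fastq 2.20 and the builds GRCm38 and mm10 are listed per the submitters' processing notes. Not given in the sources used here are base-quality filters, duplicate removal and the handling of nuclear mitochondrial copies, and each can change a low fraction. Gene positions are from RefSeq, assembly GRCm38.p6. The strand and the arms of each tRNA were found by pairing of reference bases, G with T included.

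Loads were compared by exact permutation tests over libraries or subset means with Benjamini-Hochberg adjustment, using scipy 1.17.1, numpy 2.4.6, pandas 2.3.3 and matplotlib 3.10.9 in Python 3.11.15. Alleles were tested with edgeR 4.0.16 in R 4.3.3 (quasi-likelihood test on non-reference and reference counts as paired columns, 3487 alleles at 1% or more with 5 or more counts in any library, threshold 0.05), and with DESeq2 1.42.0 and a quasi-binomial model as alternatives. The tests were tried on simulated data. Intervals are exact (Clopper-Pearson, 95%) and, as reads carry no molecular identifiers, cover counting error only.

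Replicate numbers paired the libraries: deviations from subset means correlated at 0.343 or more in all 28 pairs over the genome's alleles (0.299 over the cluster's). No libraries held identical values. Named alleles were the 5 highest means of each number, the highest of each gene, the origin and the spacers, those passing or nearest to passing a contrast with or without the block, the 3 highest counted in exactly 1 library of a number, those counted in all 8 of a number, and origin alleles counted in 2 or more libraries. The other alleles named in the stem were chosen after their values were seen. The members and lists were chosen with earlier results of these data known.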

Additional observations from a re-analysis of the deposited data

How the results depend on the processing

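Among differences between subsets, few calls held when libraries were left out. With 1 library left out, the permutations let any single library stand unpaired, so these tests are not on the same footing as those with 16. Without CD45 replicate 1, for example, the share for load was 55.4%, against 55.6% with all libraries, and its call was lost. Without both Thy libraries, shares of variance and adjusted exact permutation p were 75.1% (0.0921) for load, 78.5% (0.0781) for transition load, 46.4% (0.482) for load of alleles at 1% or more, 75.9% (0.0921) for their number and 82.2% (0.0781) for relative coverage. With the replicate block and without both Thy libraries they were 88.7% (0.0536), 89.1% (0.0737), 74.6% (0.181), 84.0% (0.122) and 82.2% (0.0536), while the block on all libraries kept all 5 calls (adjusted exact permutation p from 0.0131 to 0.0238). Without A>C and T>G changes load had 57.9% (0.131), load of alleles at 1% or more 61.5% (0.180) and their number 63.9% (0.109). At thresholds of 2% and 0.5% the number of alleles had 82.9% (0.0733) and 51.5% (0.125). The load of these alleles had 65.3% (0.164) at 2% and 54.6% (0.0117) at 0.5%, so its call held at 0.5%. Leaving out each library in turn gave shares from 54.3% to 99.1% for load, 77.0% to 89.6% for transition load, 62.6% to 98.0% for load of alleles at 1% or more, 56.4% to 99.5% for their number and 80.9% to 91.7% for relative coverage, and the call held in 1, 2, 1, 1 and 5 of 16 cases. The highest shares for load, load of alleles at 1% or more and their number all came without Thy replicate 1. There Thy replicate 2 stood alone for its subset, so its whole deviation fell between subsets. The 1 call that held for each of these measures came from the same setting. The cause was not tested.

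Comparisons of positions were steadier. Leaving out each library in turn, the difference from the rest ran from 0.0247 to 0.0318 for load (called in 16 of 16), −0.0155 to −0.0104 for transition load (lost without Thy_6C3 replicate 2) and 0.00424 to 0.00994 for load of alleles at 1% or more. Against the other tRNA genes it was −0.0156 to −0.0105 for transition load (lost without Thy replicate 2 and without Thy_6C3 replicate 2) and 0.00527 to 0.0129 for alleles at 1% or more. For the origin it was 0.0452 to 0.0612 for load and −0.0385 to −0.0221 for transition load, which passed without Thy replicate 1, Thy_6C3 replicate 1 or CD29 replicate 1. In replicate number 1 alone, transition load differed by −0.00298 from the rest and −0.000129 from the other tRNA genes, and load of alleles at 1% or more by 0.0154 and 0.0204 (adjusted exact permutation p = 0.0137); in number 2 alone the last pair was −0.00123 and −0.00228 (0.984 for both). Load of alleles at 1% or more also passed against the rest without A>C and T>G changes (difference 0.00755 percentage points). With alleles from 0.5% on, it passed against the rest (difference 0.0412) and against the other tRNA genes (difference 0.0418). It was not rerun without G5026A and G5171A, which were counted in all 8 libraries of number 1. For the origin, medians over positions gave 0.0225 (adjusted exact permutation p = 0.0656) for load; leaving out G5171A gave −0.00781 and −0.0914 for load and transition load, leaving out G5171A and G5026A gave −0.00173 and −0.0853, and number 2 alone gave −0.0617 for transition load.

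Of alleles of the cluster called for Thy, edgeR gave 0, edgeR with the replicate block 2, DESeq2 44 and the quasi-binomial model 60 of 94 (64.9% of the genome). As 62 of the 94 entered the tests through Thy replicate 2 alone, counts for Thy here and below are no independent support. DESeq2 gave 4 over all subsets and 1 for CD24_CD29, the latter an allele counted in 1 library of that subset alone. With all libraries the block changed no other count of calls in the cluster. Leaving out each library in turn gave 0 to 55 over all subsets and 0 to 71 for Thy, 55 and 71 both without Thy replicate 1, when Thy replicate 2 stands alone for its subset and is assumed to vary like the other subsets (54 and 74 with the replicate block). Over the genome 65.9% and 68.7% were called in that setting (67.0% and 69.6% with the block). For Thy it gave 1 without Thy replicate 2 (2 with the block) and 3 without CD24_CD29 replicate 2. None was called for CD45, 6C3, Thy_6C3, CD105 or CD29. For CD24 calls came only without Thy replicate 1, and for CD24_CD29 only without CD24_CD29 replicate 1. Each of these settings left Thy or CD24_CD29 with a single library, so the calls are not counted here. Sharing within a replicate number kept its direction and call under every alternative run. Depth limits the stem of the origin, where fractions near 0.01% lie under what a count of 0 allows in the shallower libraries.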
